A study of Mus musculus with 18 samples.

Results

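The genes that write, copy and remove DNA methylation, and the catalytic genes of Polycomb repressive complex 2 (PRC2), were followed in mouse CD8+ T cells activated with and without asparagine (Asn). The 9 members, Dnmt1, Uhrf1, Dnmt3a, Dnmt3b, Tet1, Tet2, Tet3, Ezh1 and Ezh2, were taken by symbol from the 18522 genes of the count table, and all 9 were among the 14871 genes that passed the filter on low counts. Naive CD8+ T cells from lymph nodes and spleen of wild-type C57BL/6N mice, given in the labels as male and aged 8 to 12 weeks, were stimulated on plates coated with anti-CD3 and anti-CD28. The 6 groups were Asn restriction, that is medium without Asn, and complete medium as control, each at 4, 24 and 72 h after activation, with 3 libraries per group. By the study's methods, mouse interleukin-2 and interleukin-12 were present in mouse cultures, and the Asn-free medium was made up with dialysed serum and added alanine. The methods state that the amino acid-proficient control medium was given alanine too, since the change to dialysed serum removes its main source. In its figure legends the study calls the RNA-seq replicates experimental replicates of one experiment. Whether they came from separate cultures or animals is not stated, so p-values here measure the spread between these libraries only, which may be technical.

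DNA methylation at CpG sites is copied to the new strand at replication by DNMT1, which UHRF1 recruits to hemimethylated DNA, and it is set on unmethylated DNA by DNMT3A and DNMT3B. TET1, TET2 and TET3 oxidise 5-methylcytosine, the first step of its removal. EZH1 and EZH2 are the alternative catalytic subunits of PRC2, which methylates lysine 27 of histone H3 and is associated with gene repression. In CD8+ T cells DNMT3A and EZH2 are known for silencing naive and memory genes in effector cells, and EZH2 is typically high in dividing cells while EZH1 is the form of resting cells.

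The libraries held 11417641 to 21872456 counts on genes (median 17975326), and Tet1, the lowest member, had between 6 and 51 counts per library. All 9 CD8 T cell markers examined were present in every library, with a summed level of 1966 to 3029 CPM. The markers of other cells summed to 29.5 to 99.8 CPM for B cells, 35.8 to 152 CPM for CD4 and regulatory T cells, 11.2 to 109 CPM for NK and gamma-delta T cells and 4.42 to 20.4 CPM for myeloid cells, led by Ighm, by Zbtb7b and Ikzf2, and by Eomes in the first 3 lists. Cd79a, Ms4a1 and Pax5 of B cells, Ncr1 and Klrb1c of NK cells, and Lyz2, Csf1r and Itgam of myeloid cells were at 0 in 3 to 7 libraries each and at most at 3.87 CPM. Other markers of these lists were present in every library: Cd79b (1.28 to 4.81 CPM), Klre1 (1.17 to 5.06 CPM), Trdc (0.476 to 6.02 CPM) and Cd68 (1.62 to 9.29 CPM). So were Cd4 (0.208 to 1.52 CPM) and Foxp3 (0.0835 to 1.96 CPM), both low. Itgax reached 11.1 CPM, the highest of the myeloid list. Replicate libraries were distinct, with a chi-square per degree of freedom between 2.13 and 16.2 for each pair of a group. Control 72 h replicate 2 gave the highest values, 11.5 and 16.2, and pairs without it were at most at 6.26. The libraries labelled 24 h went against their sex label. The Y-linked genes Ddx3y, Eif2s3y, Kdm5d and Uty had no counts in any of these 6 libraries and summed to between 1720 and 7954 counts in each of the other 12, while Xist, the RNA of the inactive X chromosome, had 6474 to 15549 counts in the 6 libraries and at most 5 in the 12. These genes, other than Uty, were chosen after their values were seen. Asn restriction and control were alike at each time in whether Y-linked counts were present and Xist was high, but not in level. In CPM without TMM scaling, Xist at 24 h was 688 to 752 under Asn restriction, against 352 to 371 in control. Ddx3y at 4 h was 224 to 239 under Asn restriction, against 125 to 136 in control. Kdm5d at 72 h was 26.7 to 29.1 under Asn restriction, against 38.2 to 40.1 in control. By the study's methods, its ex vivo work drew on mice of both sexes, and the sex behind each library is not given there. A difference between 24 h and another time cannot be told apart from a difference in the sex of the source animals. All 9 members lie on autosomes.

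A level is given as a CPM value, the share of a library's gene counts scaled to a common total, after TMM scaling, so a change is relative to the bulk of the other genes. A member is said to rise or fall where edgeR's quasi-likelihood test gave a Benjamini-Hochberg adjusted p under 0.05 over all genes tested. In bulk RNA, fewer cells that express a gene and less of its RNA per cell cannot be told apart.

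Dnmt1 and Uhrf1 are set beside each other first because they shared a pattern under Asn restriction and a sequence before a start site. The letters TTTCCCGC, TTTGGCGC, TTTCGCGC and TTTGCCGC, forms of the site bound by E2F factors of the G1/S programme, were searched on both strands in the 250 bases before each start listed by RefSeq (GRCm38.p6), for 14 starts of the 9 members. They occurred in 1.86% of all 32851 such windows and, among the members, only before the third listed start of Dnmt1 and the second of Uhrf1, as the form TTTCGCGC or its reverse complement. The matches are shown with 11 bases on either side, read 5′ to 3′ on the strand of the gene, with the matching letters in capitals.
Dnmt1, chr9:20952824-20952853, minus strand: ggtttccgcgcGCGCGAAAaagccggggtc
Uhrf1, chr17:56304117-56304146, plus strand: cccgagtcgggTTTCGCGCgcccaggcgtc
The Dnmt1 stretch lies 230 to 201 bases before its start and inside an annotated exon of another Dnmt1 transcript, and the Uhrf1 stretch lies 196 to 167 bases before its start and in no annotated exon of Uhrf1. A match describes the letters only and is not a measured binding site. The windows with a match held 68.4% G and C with 26 CpG (Dnmt1) and 69.6% with 30 CpG (Uhrf1). The share of 1.86% is over all windows and is not matched for base content. Whether the match and the shared pattern are linked was not tested. TTTGAA, the cell cycle homology region, was in the windows of Dnmt1 and Dnmt3b and in 16.0% of all windows. TGACNNNGC, the antioxidant response element, was in those of Ezh1, Ezh2 and Tet1 and in 10.2% of all. TGATGNAA, the element of C/EBP and ATF factors, was in none of the members' windows and in 3.45% of all. The window before Tet2 was the richest among the 14 in G and C (83.6%, 51 CpG), against a median of 52.4% and 6 CpG over all windows.

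Dnmt1, the maintenance methyltransferase, is on chromosome 9 of GRCm38 from 20907209 to 20959888. At 4 h it had 79.9, 83.6 and 79.9 CPM under Asn restriction, against 87.3, 85.2 and 86.0 CPM in control. The log2 fold change was -0.09 (95% interval -0.18 to 0.01, adjusted p = 0.124 with edgeR). The libraries did not overlap, but the difference did not pass the test. In the early phase, at 24 h, it had 255, 260.0 and 242 CPM under Asn restriction, against 487, 488 and 499 CPM in control. Every library under Asn restriction was thus far below every control library, and Dnmt1 was 1.95-fold lower (log2 fold change -0.96, standard error 0.041, edgeR adjusted p = 1.53e-18). In the late phase, at 72 h, the order was the opposite, with 407, 419.6 and 411 CPM under Asn restriction, against 292, 293 and 286 CPM in control. Dnmt1 was then 1.42-fold higher (log2 fold change 0.51, standard error 0.041, edgeR adjusted p = 6.36e-12).

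Uhrf1, which reads hemimethylated CpG and brings DNMT1 to it, is on chromosome 17 from 56303321 to 56323486. It was the member with the widest range, 39.5-fold between its highest and its lowest group mean. At 4 h it was low in both media, with 13.1, 13.7 and 15.9 CPM under Asn restriction, against 15.2, 18.1 and 14.4 CPM in control (log2 fold change -0.14, 95% interval -0.31 to 0.03, edgeR adjusted p = 0.166). At 24 h it had 186, 197 and 192 CPM under Asn restriction, against 574, 555 and 561 CPM in control. This 2.94-fold lower level (log2 fold change -1.55, standard error 0.051, edgeR adjusted p = 2.57e-21) was the largest effect of Asn restriction on any member at the 3 times. At 72 h it had 344, 321 and 333 CPM under Asn restriction, against 227, 224 and 225 CPM in control, and was 1.47-fold higher (log2 fold change 0.56, standard error 0.051, edgeR adjusted p = 7.10e-11). The pair thus had the same succession of calls, none at 4 h, lower at 24 h and higher at 72 h, which 630 of the 14871 genes tested (4.24%) had. Within a library, the level of Uhrf1 per kilobase was 1.25 ± 0.0513 times that of Dnmt1 under Asn restriction and 1.88 ± 0.0458 times in control at 24 h (n = 3, ± SD, exact two-sided permutation test, p = 0.1, the smallest that 3 against 3 libraries allow).

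Dnmt3a and Dnmt3b, the de novo methyltransferases on chromosomes 12 (3806007 to 3914443) and 2 (153649450 to 153687730), were unlike the maintenance pair and unlike each other. Dnmt3a was highest at 4 h in both media and declined afterwards. It had 497, 511 and 518 CPM under Asn restriction at 4 h, against 517, 551 and 529 CPM in control. In the early phase it had 310.4, 334 and 335 CPM under Asn restriction, against 336, 329 and 317 CPM in control. The libraries of both media overlapped at each of these times (edgeR adjusted p = 0.238 at 4 h and 0.946 at 24 h). A fit of only the 4 h libraries did call Dnmt3a lower at 4 h (log2 fold change -0.09, edgeR adjusted p = 0.0168). The 95% interval of its log2 fold change at 24 h ran from -0.10 to 0.09. By 72 h it had 133, 122 and 123 CPM under Asn restriction, against 104, 106 and 102 CPM in control, a log2 fold change of 0.27 (standard error 0.048, edgeR adjusted p = 1.66e-05). Dnmt3a was the only member of the 9 whose effect at 4 h and at 24 h was within 0.10 of 0 on the log2 scale.

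Dnmt3b was the member lower under Asn restriction at the first time point by the largest margin. It had 17.9, 19.9 and 19.4 CPM under Asn restriction at 4 h, against 44.7, 40.3 and 44.9 CPM in control. It was thus 2.28-fold lower (log2 fold change -1.19, standard error 0.087, edgeR adjusted p = 6.55e-13). At 24 h it had 22.4, 21.7 and 21.4 CPM under Asn restriction, against 35.2, 35.9 and 32.9 CPM in control (log2 fold change -0.67, standard error 0.084, edgeR adjusted p = 6.17e-08). The 6 libraries under Asn restriction at these times lay between 17.9 and 22.4 CPM, below all 6 control libraries. By 72 h both media were low, with 8.77, 8.01 and 7.27 CPM under Asn restriction, against 6.34, 5.68 and 6.05 CPM in control, and the fold change had turned upward (log2 fold change 0.40, standard error 0.12, edgeR adjusted p = 0.00611). The ratio of Dnmt3a to Dnmt3b per kilobase was 11.9 ± 0.494 under Asn restriction and 5.50 ± 0.519 in control at 4 h. In the early phase it was 6.67 ± 0.442 under Asn restriction and 4.21 ± 0.115 in control (n = 3, ± SD, exact permutation test, p = 0.1 at both times). At 72 h the ranges overlapped (7.03 ± 0.447 under Asn restriction and 7.72 ± 0.547 in control, exact p = 0.3).

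**Figure D1:**
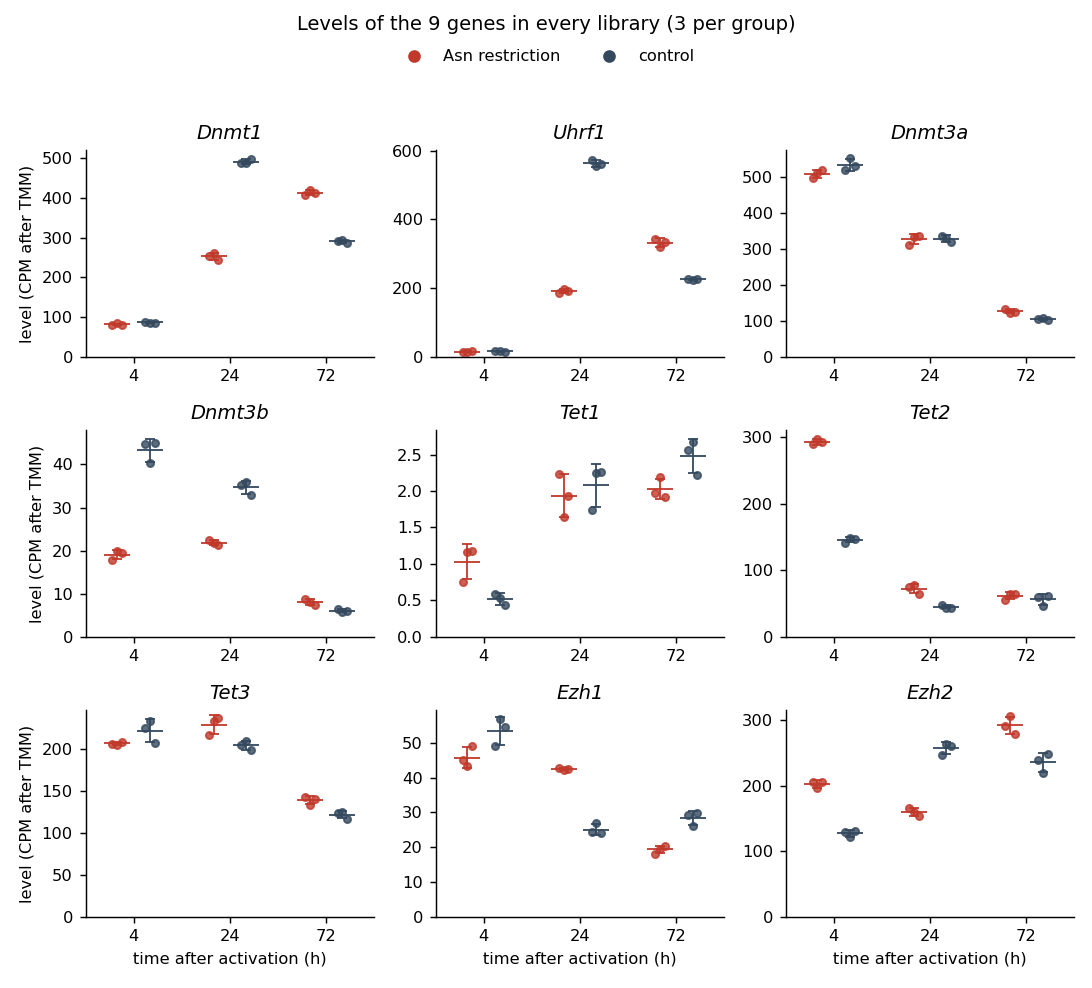
Level of each of the 9 genes (vertical axes, CPM after TMM scaling, starting at 0) by time after activation (h), with 1 point per library, Asn restriction in red left of control in dark blue, and the mean ± SD of 3 libraries. Dnmt1 and Uhrf1 are lower under Asn restriction at 24 h and higher at 72 h, Tet2 is higher at 4 and 24 h, and Ezh1 and Ezh2 are on opposite sides of control at each time.

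Tet2, on chromosome 3 from 133463679 to 133545139, is the TET gene most often mutated in human blood cancers and is known to restrain T cell responses. At 4 h it had 289, 297 and 293 CPM under Asn restriction, against 141, 148 and 147 CPM in control. It was thus 2.01-fold higher (log2 fold change 1.01, standard error 0.072, edgeR adjusted p = 3.97e-13). At 24 h it had 74.8, 77.6 and 64.8 CPM under Asn restriction, against 48.4, 43.5 and 43.7 CPM in control (log2 fold change 0.68, standard error 0.079, edgeR adjusted p = 1.23e-08). No library of the 2 media overlapped at either time, whereas at 72 h they did, with 55.6, 64.3 and 64.4 CPM under Asn restriction, against 60.2, 46.1 and 61.6 CPM in control (log2 fold change 0.13, 95% interval -0.04 to 0.29, edgeR adjusted p = 0.205). The lowest of these values, 46.1 CPM, was that of control 72 h replicate 2. With 1 library left out, the Tet2 value at 72 h ran from 0.02 to 0.20 and was not called (edgeR adjusted p between 0.0584 and 0.863).

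Tet3, on chromosome 6 from 83362373 to 83459084, was the steadiest member, with a ratio of 1.88 between its highest and lowest group means. In the early phase it had 217, 234 and 237 CPM under Asn restriction, against 205, 210.0 and 199 CPM in control (log2 fold change 0.16, standard error 0.050, edgeR adjusted p = 0.00558). In the late phase it had 143, 133 and 140.4 CPM under Asn restriction, against 123, 125 and 117 CPM in control (log2 fold change 0.19, standard error 0.052, edgeR adjusted p = 0.00273). Without TMM factors the 72 h value was 0.08 and its call was lost (adjusted p = 0.206). At 4 h its libraries overlapped between media (log2 fold change -0.10, 95% interval -0.20 to 0.00, edgeR adjusted p = 0.112). A fit of only the 4 h libraries did call Tet3 lower at 4 h (log2 fold change -0.12, edgeR adjusted p = 0.00884). Tet1, on chromosome 10 from 62804570 to 62908996, was the lowest of the members per kilobase in every group. It had 0.753, 1.16 and 1.18 CPM under Asn restriction at 4 h, from 14, 19 and 18 counts, against 0.586, 0.535 and 0.431 CPM in control, from 10, 6 and 9 counts. Its rise at 4 h (log2 fold change 0.99, standard error 0.38, edgeR adjusted p = 0.0320) was lost in limma-voom (adjusted p = 0.0698) and without Asn restriction 4 h replicate 2 or 3 or control 4 h replicate 2 or 3 (edgeR adjusted p between 0.0506 and 0.120). At 24 and 72 h Tet1 lay between 1.65 and 2.67 CPM in all libraries, and its difference between media did not pass, although the libraries did not overlap at 72 h (edgeR adjusted p = 0.797 and 0.422).

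The share of Tet2 in the summed level per kilobase of the 3 TET genes was 62.6 ± 0.454% under Asn restriction and 43.8 ± 1.73% in control at 4 h. At 24 h it was 27.2 ± 2.41% under Asn restriction and 20.7 ± 1.10% in control (n = 3, ± SD, exact permutation test, p = 0.1 at both times). At 72 h it was 34.2 ± 2.48% under Asn restriction and 34.9 ± 4.25% in control (exact p = 0.7). Tet2 thus exceeded Tet3 per kilobase only at 4 h under Asn restriction among the 6 groups, with a ratio of Tet3 to Tet2 of 0.594 ± 0.0118, against 1.28 ± 0.0881 in control (n = 3, ± SD, exact permutation test, p = 0.1).

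Ezh2 and Ezh1, on chromosomes 6 (47530139 to 47595341) and 11 (101191115 to 101226463), were on opposite sides of control at each time. Ezh2 had 205, 196 and 206 CPM under Asn restriction at 4 h, against 129, 121 and 131 CPM in control. It was thus 1.59-fold higher (log2 fold change 0.67, standard error 0.053, edgeR adjusted p = 3.24e-12). In the early phase it had 165, 159.7 and 154 CPM under Asn restriction, against 246, 263 and 260.1 CPM in control, 1.61-fold lower (log2 fold change -0.68, standard error 0.051, edgeR adjusted p = 8.70e-13). By 72 h it had 291, 305 and 279 CPM under Asn restriction, against 239, 218 and 248 CPM in control (log2 fold change 0.31, standard error 0.051, edgeR adjusted p = 5.33e-06). The succession of higher, lower and higher was seen in 260 genes (1.75% of those tested).

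Ezh1 had the reverse succession, which 134 genes had (0.901% of those tested). It had 45.0, 43.2 and 49.0 CPM under Asn restriction, against 49.0, 56.7 and 54.5 CPM in control at 4 h (log2 fold change -0.22, standard error 0.076, edgeR adjusted p = 0.0167). The highest library under Asn restriction was just below the lowest control library. This call was lost without Asn restriction 4 h replicate 1 or 2 or control 4 h replicate 2 or 3 (edgeR adjusted p between 0.0634 and 0.113). At 24 h Ezh1 had 42.6, 42.2 and 42.5 CPM under Asn restriction, against 24.4, 26.8 and 23.9 CPM in control, 1.70-fold higher (log2 fold change 0.76, standard error 0.079, edgeR adjusted p = 1.06e-09). In the late phase it had 18.2, 19.5 and 20.3 CPM under Asn restriction, against 29.2, 26.0 and 29.9 CPM in control, 1.47-fold lower (log2 fold change -0.56, standard error 0.086, edgeR adjusted p = 2.14e-06).

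The ratio of Ezh2 to Ezh1 per kilobase moved with both. At 4 h it was 6.90, 6.84 and 6.34 under Asn restriction, a mean of 6.69 ± 0.306, against 3.61 ± 0.376 in control (n = 3, ± SD). At 24 h it was 5.68 ± 0.205 under Asn restriction and 15.5 ± 0.817 in control. At 72 h it was 22.9 ± 1.89 under Asn restriction and 12.5 ± 0.163 in control (n = 3, ± SD). No library overlapped between media at any of the 3 times, and the exact permutation test gave its smallest p, 0.1, at each. Control libraries had their highest ratio at 24 h, and libraries under Asn restriction at 72 h.

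**Figure D2:**
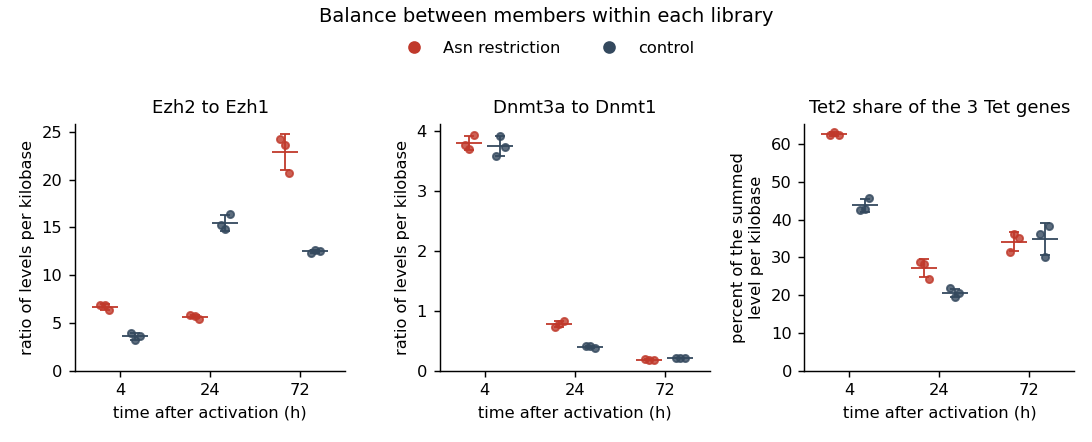
Balance between members within each library by time after activation (h): the ratio of Ezh2 to Ezh1 and of Dnmt3a to Dnmt1 in levels per kilobase, and the share of Tet2 in the summed level per kilobase of the 3 TET genes (percent), with 1 point per library, Asn restriction in red left of control in dark blue, and the mean ± SD of 3 libraries. The Ezh2 to Ezh1 ratio is higher under Asn restriction at 4 and 72 h and lower at 24 h, and the Tet2 share differs between media at 4 and 24 h.

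Counted over the members, 5 of 9 were called at 4 h, 3 higher (Tet1, Tet2, Ezh2) and 2 lower (Dnmt3b, Ezh1), where 45.6% of all genes tested were called, 23.6% higher and 22% lower. At 24 h, 7 were called, with Tet2, Tet3 and Ezh1 higher and Dnmt1, Uhrf1, Dnmt3b and Ezh2 lower, against 55.5% of all genes, 27.5% higher and 28% lower. At 72 h, 7 were called, with only Ezh1 lower and Dnmt1, Uhrf1, Dnmt3a, Dnmt3b, Tet3 and Ezh2 higher, against 49.2% of all genes, 25.4% higher and 23.8% lower. The libraries of the 2 media did not overlap for 6, 7 and 8 members at 4, 24 and 72 h, where 54.6, 61.3 and 53.6% of all genes did not. The median log2 fold change of the 9 was -0.09 at 4 h, -0.09 at 24 h and 0.27 at 72 h, beside 0.02, 0.01 and -0.01 over all genes tested. As shares of 9 genes these counts were near those of all genes at 4 h, and nothing is read from the list as a whole. Without TMM factors 8 members passed at 4 h, 2 higher and 6 lower, with Dnmt1, Dnmt3a, Uhrf1 and Tet3 added as lower and Tet1 lost. Of all genes tested, 6850 passed without these factors at 4 h, against 6783 with them. The ERCC spike-ins, synthetic RNAs, took 0.829 to 1.72% of counts. Scaling to them left 3 members at 4 h and 4 at 24 h, where Dnmt3b, Tet3 and Ezh2 were lost, and gave 7 higher and 0 lower at 72 h. It lowered the calls over all genes as well, from 6783 to 3064 at 4 h and from 8252 to 4889 at 24 h.

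**Figure D3:**
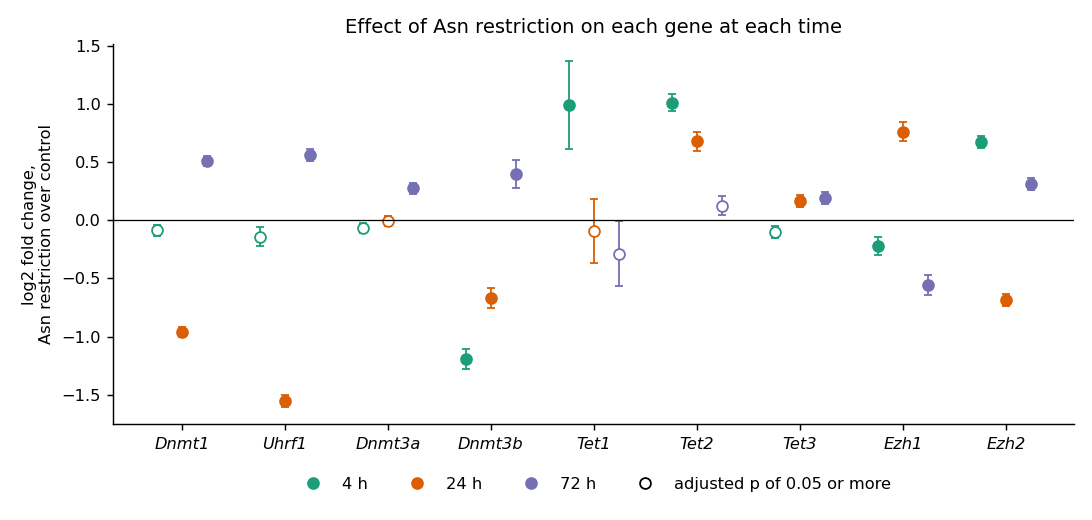
Log2 fold change of Asn restriction over control (vertical axis) for each of the 9 genes at 4, 24 and 72 h, with the standard error as bars and open circles where the adjusted p was 0.05 or more. Uhrf1 has the lowest value, -1.55 at 24 h, Tet2 and Tet1 have the highest at 4 h, and of the members called at both times, Dnmt1, Dnmt3b, Uhrf1, Ezh1 and Ezh2 change side between 24 and 72 h.

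The difference of the effect between times was tested directly. Between 72 h and 24 h it passed for 7 members, 5 upward and 2 downward, against 57.2% of all genes (29.5% upward and 27.7% downward). It was largest for Uhrf1, 2.12 on the log2 scale (standard error 0.072, edgeR adjusted p = 2.77e-21), then Dnmt1 with 1.47 (standard error 0.058). Ezh1 had a difference of -1.32 (standard error 0.12) and Ezh2 one of 0.99 (standard error 0.072), and the intervals of Tet1 (-0.99 to 0.61) and Tet3 (-0.12 to 0.17) held 0. Without TMM factors the split was 4 upward and 3 downward, and the difference of Dnmt3a, 0.28, was 0.06 and not called (adjusted p = 0.450). Between 24 h and 4 h, 7 members passed, 3 upward and 4 downward, against 36.3% of all genes (18.5% upward and 17.8% downward). Without TMM factors the split was 4 upward and 3 downward, and with the spike-ins 2 and 2, with Dnmt1, Tet2 and Tet3 lost. Between 72 h and 4 h, a contrast of no 24 h library, 9 of 9 passed, 5 upward (the 4 DNMT and UHRF1 genes and Tet3) and 4 downward (Tet1, Tet2, Ezh1 and Ezh2), against 49.4% of all genes (25.1% upward and 24.3% downward). Dnmt3b had the largest of these, 1.59 (standard error 0.15, edgeR adjusted p = 1.05e-10). With the spike-ins, 5 members passed upward and 0 downward.

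The course of the members after activation was followed within each medium. Under Asn restriction, 7 members were called between 24 h and 4 h, 4 higher and 3 lower, against 65.8% of all genes (34.9% higher and 30.9% lower), and 8 between 72 h and 24 h, 3 higher and 5 lower, against 70.7% (35.3% higher and 35.5% lower). In control, 9 were called between 24 h and 4 h, 4 higher and 5 lower, against 69.7% (34.9% higher and 34.7% lower), and 8 between 72 h and 24 h, 2 higher and 6 lower, against 70.8% (35.7% higher and 35.1% lower). The libraries did not overlap for 9 and 8 members under Asn restriction and for 8 and 5 in control in these comparisons, where 70.7, 73.7, 72.1 and 70.7% of all genes did not. Without TMM factors the split between 24 h and 4 h under Asn restriction was 6 higher and 2 lower, with the spike-ins 5 and 1, and by DESeq2 3 and 4. In control the spike-ins gave 4 higher and 3 lower between 24 h and 4 h, and 0 higher and 5 lower between 72 h and 24 h. These comparisons carry the change of sex-linked RNA at 24 h described above. Uhrf1 was higher at 24 h than at 4 h by 3.76 on the log2 scale under Asn restriction and by 5.17 in control (standard error 0.066 each), and Dnmt1 by 1.64 and by 2.51 (standard error 0.044 each). At 72 h both were higher than at 24 h under Asn restriction, Uhrf1 by 0.79 and Dnmt1 by 0.71, whereas in control Uhrf1 fell by 1.32 and Dnmt1 by 0.76 on that scale. Dnmt3a declined at each step in both media, between 72 h and 24 h by log2 fold changes of -1.38 under Asn restriction and -1.65 in control. With the spike-ins, the step between 24 h and 4 h under Asn restriction was -0.11 instead of -0.64 and was not called (adjusted p = 0.641). Tet2 was lower at 24 h than at 4 h by log2 fold changes of -2.02 under Asn restriction and -1.69 in control. Ezh2 was lower at 24 h than at 4 h under Asn restriction (log2 fold change -0.34, standard error 0.051), where it was higher in control (1.01, standard error 0.052), and the first of these was 0.19 with the spike-ins (adjusted p = 0.434) and -0.01 without TMM factors (adjusted p = 0.832).

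Set beside each other per kilobase of transcript, the members changed rank. At 4 h Ezh2 led under Asn restriction with 72.6 CPM per kilobase, before Dnmt3a with 52.5 and Tet2 with 31.9, whereas Dnmt3a led in control with 55.0 before Ezh2 with 45.5. At 24 h Ezh2 led under Asn restriction with 57.2 before Uhrf1 with 53.5 and Dnmt1 with 43.0, whereas Uhrf1 led in control with 157 before Ezh2 with 92.0 and Dnmt1 with 83.7. At 72 h the order at the top was Ezh2, Uhrf1 and Dnmt1 in both media, with 105, 92.8 and 70.3 CPM per kilobase under Asn restriction and 84.3, 62.9 and 49.4 in control. The ratio of Dnmt3a to Dnmt1 per kilobase was 3.80 ± 0.119 under Asn restriction and 3.75 ± 0.164 in control at 4 h (n = 3, exact permutation test, p = 0.7). It was 0.785 ± 0.0499 under Asn restriction and 0.404 ± 0.0169 in control at 24 h, and 0.185 ± 0.0110 under Asn restriction and 0.217 ± 0.00212 in control at 72 h (n = 3, ± SD, exact p = 0.1 at both). Neighbours in the order whose libraries overlapped were Dnmt3b and Uhrf1 under Asn restriction at 4 h, Dnmt3a and Tet3 in both media at 72 h, and Ezh1 and Tet2 in control at 72 h. Exons of Dnmt3a, Tet2 and Ezh2 overlap those of antisense or long noncoding genes of the opposite strand by 133, 43 and 174 bases, and whether the counting used strand was not given in the sources used here, so a part of their counts may belong to these genes.

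**Figure D4:**
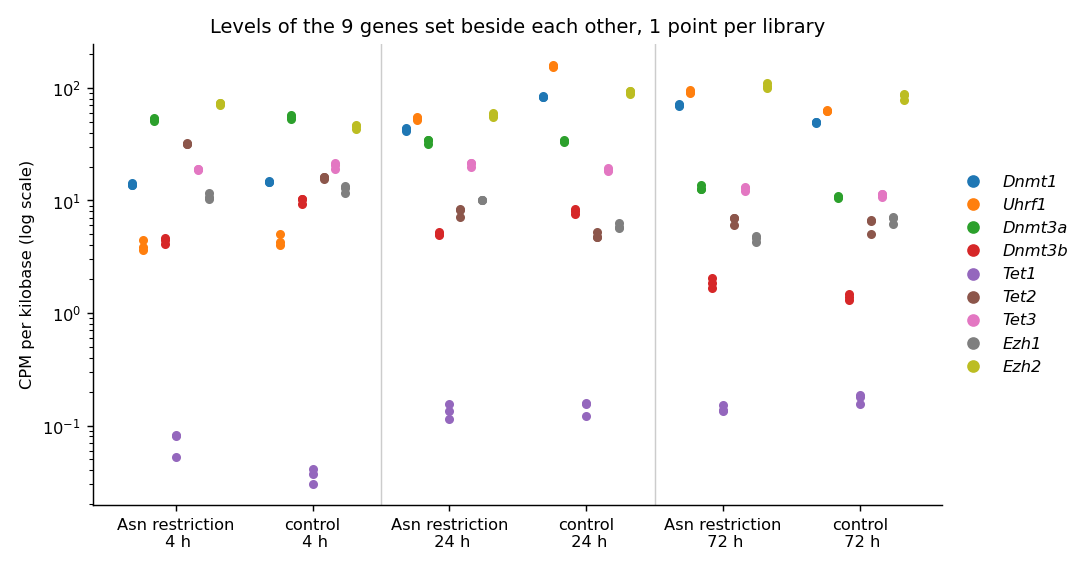
Level of each of the 9 genes in CPM per kilobase (vertical axis, log scale) in the 6 groups, ordered by time with Asn restriction left of control, 1 point per library. Uhrf1 spans the widest range, Tet1 is the lowest in every group, and Dnmt3a passes below Dnmt1 and Uhrf1 after 4 h.

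Genes that copy DNA during S phase were read beside the members, since DNMT1 and UHRF1 act at the replication fork. Of 16 such genes, 1 rose and 9 fell at 4 h, 0 rose and 16 fell at 24 h, and 14 rose and 0 fell at 72 h, with median log2 fold changes of -0.39, -1.19 and 0.71. Counts for this list and those below stand beside these shares of all genes tested. At 4 h 23.6% were higher and 22% lower, at 24 h 27.5 and 28%, and at 72 h 25.4 and 23.8%. No list was tested as a set. Per 100 counts of the 16 S phase genes, Dnmt1 had 13.1 ± 0.372 counts under Asn restriction and 11.3 ± 0.125 in control at 24 h. By 72 h it had 15.4 ± 0.166 under Asn restriction and 18.4 ± 0.350 in control (n = 3, ± SD, exact permutation test, p = 0.1 at both times). Set against the S phase genes, the difference of Dnmt1 between media thus had the opposite sign from that in CPM at both times. Uhrf1 had 9.99 ± 0.198 counts per 100 under Asn restriction and 13.0 ± 0.302 in control at 24 h, so against these genes too it was lower under Asn restriction. In the late phase it had 12.4 ± 0.591 under Asn restriction and 14.3 ± 0.340 in control (n = 3, ± SD, exact permutation test, p = 0.1 at both times). This late difference of Uhrf1 had the opposite sign from that in CPM. At 4 h, where neither Dnmt1 nor Uhrf1 was called in CPM, Dnmt1 had 17.2 ± 0.506 counts per 100 under Asn restriction and 13.1 ± 0.336 in control. Uhrf1 then had 3.03 ± 0.369 under Asn restriction and 2.41 ± 0.276 in control (n = 3, ± SD, exact permutation test, p = 0.1 for each gene). Ezh2 had 43.0 ± 1.60 counts per 100 under Asn restriction and 19.2 ± 0.969 in control at 4 h, higher as in CPM. Its values were 8.31 ± 0.316 under Asn restriction and 5.93 ± 0.174 in control at 24 h, and 10.9 ± 0.319 under Asn restriction and 14.9 ± 1.16 in control at 72 h, both of the opposite sign from the difference in CPM (n = 3, ± SD, exact permutation test, p = 0.1 at each time). What part the amount of S phase has in the members' levels was not tested.

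Of 6 partners of DNA methylation, 3 fell and 1 rose at 4 h, 5 fell and 1 rose at 24 h, and 4 rose and 1 fell at 72 h (median log2 fold changes -0.28, -0.66 and 0.36). Hells, a chromatin remodeller needed for methylation of repeats, and Cdca7, its activator, fell by 1.34 and 1.19 on the log2 scale at 24 h (standard errors 0.078 and 0.054, edgeR adjusted p = 2.32e-15 and 6.69e-18). Cdca7 was also lower at 4 h, with 27.3 ± 0.0837 CPM under Asn restriction, against 103 ± 5.03 CPM in control (n = 3, ± SD, log2 fold change -1.92, edgeR adjusted p = 1.19e-21). Pcna, the sliding clamp that binds DNMT1, had 544 ± 15.9 CPM under Asn restriction, against 969 ± 27.1 CPM in control at 24 h. At 72 h it had 747 ± 31.8 CPM under Asn restriction, against 357 ± 19.1 CPM in control (n = 3, ± SD). The gene that moved against the rest was Uhrf2, the paralog of Uhrf1, with log2 fold changes of 0.38, 0.29 and -0.51 at 4, 24 and 72 h (edgeR adjusted p = 4.22e-05, 0.000949 and 2.35e-07). Of 8 genes that read methylated CpG, 4 rose and 1 fell at 4 h, 4 rose and 2 fell at 24 h, and 1 rose and 4 fell at 72 h. Zbtb4, a zinc finger reader, had log2 fold changes of 0.67, 1.51 and -0.87 in the same order (standard errors 0.11 each), all called.

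Among 12 genes of DNA demethylation and TET partners, 5 rose and 2 fell at 4 h, 5 rose and 5 fell at 24 h, and 3 rose and 5 fell at 72 h. The stress genes Gadd45b and Gadd45g, which have been linked to active demethylation, rose by 1.05 and 1.38 on the log2 scale at 4 h and by 1.87 and 1.89 at 24 h. Gadd45b had 342 ± 6.62 CPM under Asn restriction, against 165 ± 11.8 CPM in control at 4 h (n = 3, ± SD, edgeR adjusted p = 7.59e-16). Idh2, a mitochondrial isocitrate dehydrogenase whose product 2-oxoglutarate the TET enzymes use, was at 1.79 ± 0.331 CPM under Asn restriction, against 7.16 ± 0.815 CPM in control at 4 h (n = 3, ± SD, log2 fold change -1.99, edgeR adjusted p = 1.03e-11). Idh1, its cytosolic counterpart, had a log2 fold change of -1.47 at 24 h and of 0.86 at 72 h (edgeR adjusted p = 9.07e-06 and 0.000172).

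Of 11 further PRC2 genes, 5 rose and 3 fell at 4 h, 4 rose and 6 fell at 24 h, and 6 rose and 3 fell at 72 h (median log2 fold changes 0.15, -0.41 and 0.48). Phf1, a Tudor-domain subunit of one form of PRC2, had the calls of Ezh1 at 24 and 72 h. It had 16.9 ± 1.28 CPM under Asn restriction, against 4.55 ± 0.722 CPM in control at 24 h, and 7.54 ± 0.807 CPM under Asn restriction, against 15.9 ± 2.40 CPM in control at 72 h (n = 3, ± SD). Its homolog Phf19 had a log2 fold change of -1.09 at 24 h and of 0.60 at 72 h (standard errors 0.12 and 0.11). The histone-binding subunits Rbbp4 and Rbbp7 rose at 72 h (log2 fold changes 0.75 and 0.81). Rbbp4 fell at 4 and 24 h (-0.51 and -0.66). Jarid2, which brings PRC2 to chromatin, had 252 ± 8.04 CPM under Asn restriction, against 137 ± 5.14 CPM in control at 4 h (n = 3, ± SD, log2 fold change 0.88, edgeR adjusted p = 7.94e-16). Suz12, a core subunit named here after its values were seen, had the same 3 calls as Ezh2, with log2 fold changes of 0.31, -0.47 and 0.48 at 4, 24 and 72 h.

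Of the 3 genes of the family that removes methyl groups from lysine 27 of histone H3, 3 rose at 4 h, 2 rose at 24 h, and 1 rose and 1 fell at 72 h. Kdm6b was at 2696 ± 60.1 CPM under Asn restriction, against 1686 ± 70.1 CPM in control at 4 h. In the early phase it was at 378 ± 20.5 CPM under Asn restriction, against 131 ± 4.31 CPM in control (n = 3, ± SD, log2 fold changes 0.68 and 1.52, edgeR adjusted p = 5.49e-14 and 6.77e-22). Kdm6a, on the X chromosome, rose by 0.57, 0.46 and 0.43 at 4, 24 and 72 h, and its Y-linked homolog Uty, at 0 in all 24 h libraries, rose by 0.56 at 4 h. Of 8 genes that supply S-adenosylmethionine, the methyl donor of both DNA and histone methylation, 2 rose and 3 fell at 4 h, 3 rose and 3 fell at 24 h, and 4 rose and 2 fell at 72 h. Mat2a, the synthetase that makes it in T cells, had 171 ± 2.43 CPM under Asn restriction, against 38.6 ± 1.02 CPM in control at 72 h (n = 3, ± SD, log2 fold change 2.15, standard error 0.047, edgeR adjusted p = 1.84e-25). Ahcy, which clears the by-product of methyl transfer, had 156 ± 2.03 CPM under Asn restriction, against 316 ± 9.32 CPM in control at 24 h. By 72 h it had 497 ± 17.2 CPM under Asn restriction, against 360.2 ± 26.6 CPM in control (n = 3, ± SD). Of 19 PRC1 genes, 5 rose and 4 fell at 4 h, 5 rose and 4 fell at 24 h, and 5 rose and 8 fell at 72 h. The shares of all genes called in either direction were 45.6, 55.5 and 49.2%, and nothing is read from the PRC1 list as a whole. Rybp, a PRC1 subunit, rose by 1.13 at 72 h, and Cbx2, a reader of methylated lysine 27, fell by 1.20 at 24 h.

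**Figure D5:**
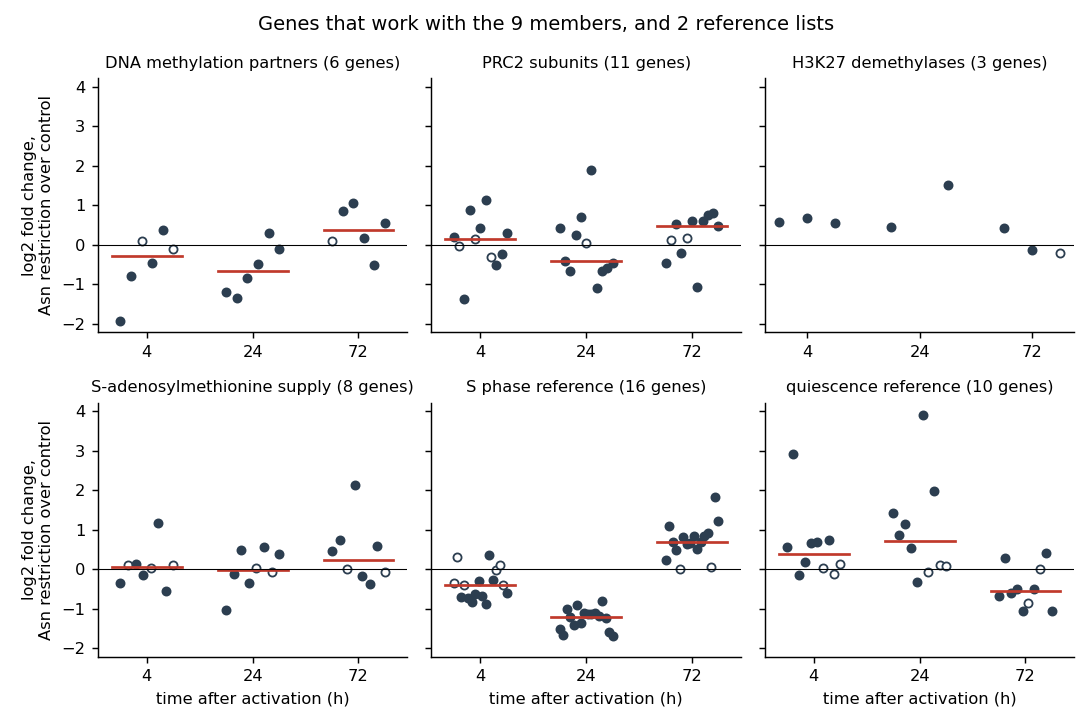
Log2 fold change of Asn restriction over control (vertical axis) at 4, 24 and 72 h for genes that work with the members and for the S phase and quiescence lists, 1 circle per gene, filled where the adjusted p was under 0.05, with a red line at the median of lists of more than 3 genes; Uty, with no counts at 24 h, is not drawn there. All 16 S phase genes are below 0 at 24 h, and the PRC2 and partner lists are spread on both sides of 0.

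Of 10 genes of quiescence and naive state, 6 rose and 1 fell at 4 h, 6 rose and 1 fell at 24 h, and 2 rose and 6 fell at 72 h (median log2 fold changes 0.38, 0.71 and -0.54). The marker sums differed between media in ways that changed with time. The CD4 and regulatory T cell sum was led by Zbtb7b and Ikzf2, while Cd4 and Foxp3 reached at most 1.52 and 1.96 CPM in any library. The sum was 82.1 to 94.0 CPM under Asn restriction, against 48.5 to 55.9 CPM in control at 4 h. At 24 h it was 55.5 to 62.2 CPM under Asn restriction, against 35.8 to 38.7 CPM in control. At 72 h the order was the opposite, with 78.5 to 84.8 CPM under Asn restriction, against 146 to 152 CPM in control. The NK and gamma-delta T cell sum was led by Eomes. Under Asn restriction that sum was lower at 4 h (64.0 to 72.6 CPM, against 81.0 to 87.9 CPM in control). It was higher at 24 h (106 to 109 CPM, against 69.8 to 72.0 CPM in control) and at 72 h (15.8 to 18.6 CPM, against 11.2 to 11.9 CPM in control). The B cell sum, led by Ighm, an immunoglobulin transcript, overlapped at 4 h and was lower under Asn restriction at 24 h (48.5 to 54.4 CPM, against 88.8 to 99.8 CPM in control) and at 72 h (29.5 to 37.0 CPM, against 40.5 to 41.5 CPM in control). The myeloid sum overlapped at 4 and 72 h and was higher under Asn restriction at 24 h (6.76 to 7.57 CPM, against 4.42 to 4.87 CPM in control). The CD8 T cell sum was lower under Asn restriction at 4 h (2481 to 2543 CPM, against 2943 to 3029 CPM in control) and at 72 h (1966 to 2016 CPM, against 2176 to 2244 CPM in control), and overlapped at 24 h. What part these had in the members' values was not tested.

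Likeness of pattern was measured as the root mean square difference of centred log2 CPM over the 6 group means, among 9463 genes (9464 for Tet1) that reached 10 CPM as the mean of any group. It gives no test. The genes closest to Dnmt1 were Prim2, Cenpu and Rpa3, at 0.0929, 0.102 and 0.128 on the log2 scale. Those closest to Uhrf1 were Dtl, Gins1 and Dscc1, at 0.125, 0.130 and 0.180. Tet2 was closest to Maml2 and Smad7, at 0.114 and 0.118. Ezh2 was closest to Mtfr1, Rad18 and Apip, at 0.0953, 0.106 and 0.113. Ezh1 was closest to Slc39a3, at 0.0797, Tet1 to Pigp, at 0.166, Dnmt3a to Taf1c, at 0.0604, and Tet3 to Rrnad1, at 0.0432. Dnmt3b had no gene nearer than 0.216, the largest such distance among the 9. Among the members themselves, the closest pair was Tet3 and Ezh1, at 0.374, and Dnmt1 and Uhrf1 were at 1.08.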

How the data were processed

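RNA was measured in 18 libraries of CD8+ T cells. The tools listed in the submitters' processing notes are Trim Galore 0.60, STAR 2.7 and RSEM 1.31. The builds hg19 and mm10 are listed with no role given. The authors deposited whole-number counts per gene, used here, and normalized counts, a signal equal to the counts times 1 constant per library, from which only their size factors were taken. The log2 values and p-values deposited beside them are the authors' own comparisons and were not used, and the deposited mean signal per group was not used either. Of the table, 18522 rows are genes and 63 are ERCC spike-ins, kept out of library sizes. Positions and overlaps came from GENCODE M21 (GRCm38), with 17707 of the gene IDs matched with their version and 18508 without it, and sequences from RefSeq (GRCm38.p6), which held a promoter for all 9 members; for 12 of the 14 start sites the first 20 transcribed bases were found in a transcript of the gene.

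Counts were analysed in R 4.3.3 with edgeR 4.0.16 (filterByExpr, TMM, quasi-likelihood fit of 6 group means to 18 libraries, 12 residual degrees of freedom, common biological coefficient of variation 0.0607). Benjamini-Hochberg adjustment ran over 14871 genes in each of 10 comparisons, with a threshold of 0.05. The standard error is the size of the log2 fold change divided by the square root of F. The edgeR steps were also run on simulated counts in which few genes differed between media, as many up as down. In the data 45.6 to 55.5% of genes were called between media, so that simulation does not test TMM scaling as used here. Ratios used CPM divided by the transcript length of the table and an exact two-sided permutation test, whose smallest p with 3 against 3 is 0.1. Likeness used a prior count of 2. All 9 members are named in each comparison; of the other lists, up to 4 genes with the largest change past the threshold, and those that moved against their list. The members and lists were chosen with earlier results of these data known. Alternatives were DESeq2 1.42.0 size factors and Wald test, the authors' size factors, no TMM, ERCC scaling, limma-voom (limma 3.58.1), other filters, only the times compared, a stricter threshold of 0.01, the replicate number as a block, and each library left out.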

Additional observations from a re-analysis of the deposited data

Results flagged for a closer look

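The effect of Asn restriction on the members differed between times by a direct test in 23 of 27 cases (edgeR, adjusted p under 0.05). Of all genes tested, 36.3, 57.2 and 49.4% passed the same tests, in the order of the paragraphs below. Each member enters every one of these tests, and the last difference is the sum of the others. The 27 cases are therefore not separate results. The differences below are on the log2 scale. Differences that involve 24 h cannot be told apart from the change of sex-linked RNA at that time.

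Between 24 h and 4 h the difference was -0.87 for Dnmt1, -1.41 for Uhrf1, 0.52 for Dnmt3b, -0.33 for Tet2, 0.26 for Tet3, 0.99 for Ezh1 and -1.35 for Ezh2. Ezh2 had the smallest adjusted p of these, 1.99e-15. The Tet2 difference rested on 1 library, since without Asn restriction 24 h replicate 3 it was -0.26 (adjusted p = 0.0623), and it was -0.11 without TMM factors (adjusted p = 0.462). With ERCC scaling the Dnmt1 difference was -0.50 (adjusted p = 0.186) and that of Tet3 0.63 (adjusted p = 0.0880), neither called.

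Between 72 h and 24 h the difference was 1.47 for Dnmt1, 2.12 for Uhrf1, 0.28 for Dnmt3a, 1.06 for Dnmt3b, -0.55 for Tet2, -1.32 for Ezh1 and 0.99 for Ezh2. Without control 72 h replicate 2, the library with the lowest mitochondrial share (0.439%, against at least 0.741% in the others), the count of 7 members did not change. The Dnmt3a difference was not called without TMM factors (0.06, adjusted p = 0.450) or with ERCC scaling (0.38, adjusted p = 0.293), nor was that of Tet2 with ERCC scaling (-0.43, adjusted p = 0.240).

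Between 72 h and 4 h, with no 24 h library in the comparison, it was 0.59 for Dnmt1, 0.70 for Uhrf1, 0.34 for Dnmt3a, 1.59 for Dnmt3b, -1.28 for Tet1, -0.88 for Tet2, 0.29 for Tet3, -0.33 for Ezh1 and -0.36 for Ezh2. The Tet1 difference was lost without Asn restriction 4 h replicate 2 or 3 or control 4 h replicate 3 (adjusted p between 0.0565 and 0.0702), and that of Ezh1 without control 4 h replicate 1 (adjusted p = 0.0506). With ERCC scaling the differences of Tet1 (-0.82, adjusted p = 0.330) and Tet2 (-0.38, adjusted p = 0.302) were not called.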

How the results depend on the processing

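Counts of members called kept within 1.5 times of their value under DESeq2 size factors, the DESeq2 Wald test, limma-voom, the authors' size factors, both other filters and the fit of only the times compared, in all 10 comparisons. The genes behind a count could change. At 4 h the fit of only the 4 h libraries gave 2 higher and 4 lower. Dnmt3a and Tet3 were then called lower (edgeR adjusted p = 0.0168 and 0.00884) and Tet1 was lost (edgeR adjusted p = 0.0734). Without TMM factors 8 members passed at 4 h. ERCC scaling, which put the median log2 fold change of all genes at -0.11, 0.25 and 0.31 at 4, 24 and 72 h, left 3 at 4 h, 4 at 24 h, 4 for the difference between 24 h and 4 h, 5 for that between 72 h and 4 h, and 5 for 72 h against 24 h in control. The loss was not limited to the members. With ERCC scaling 3064 of all genes passed at 4 h, against 6783 in the main analysis, and 4889 at 24 h, against 8252. At an adjusted p under 0.01, 3 members passed at 4 h, where 5462 of all genes did. With 1 library left out, the count ran from 3 to 5 at 4 h, where it was 3 without Asn restriction 4 h replicate 2 and 3 without control 4 h replicate 2, and was 7 throughout at 24 h and at 72 h. In the fits that gave 3 at 4 h, 6231 and 6248 of all genes passed. At 24 h between 7598 and 8599 of all genes passed with 1 library left out.

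Among values called in the main analysis or under the alternative, those that changed sign were, with ERCC scaling, Tet2 for the difference between 24 h and 4 h (0.043), Ezh1 and Ezh2 for that between 72 h and 4 h (0.15 and 0.13), Ezh2 for 24 h against 4 h under Asn restriction (0.19) and Tet3 for the same times in control (0.044), none of them called under it. Without TMM factors they were Tet3 for the difference between 72 h and 24 h (-0.19) and Ezh1 for 24 h against 4 h under Asn restriction (0.22), both called. The cause was not tested. At 24 h the calls of Dnmt3b, Tet3 and Ezh2 were lost with ERCC scaling (adjusted p = 0.0984, 0.105 and 0.0581), and at 72 h that of Ezh1 (0.445). The Tet3 call at 72 h was lost without TMM factors (0.206). With 1 library left out, 4 uncalled values near 0 also crossed it: Dnmt3a (-0.02 to 0.03) and Tet1 (-0.21 to 0.01) at 24 h, Tet3 for the difference between 72 h and 24 h (-0.01 to 0.05), and Tet1 for 72 h against 24 h under Asn restriction (-0.05 to 0.17).

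The replicate numbers did not pair the libraries: same-number correlations ran from -0.05 to 0.01 in 9 pairs. With the replicate block, 5, 7 and 7 members were called at 4, 24 and 72 h, as without it. Of all genes, 6703 passed at 4 h and 8083 at 24 h with the block, against 6783 and 8252 without it. Among the members, Tet1 had the fewest counts and the widest standard errors.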
